A study of Mus musculus with 24 samples.

Results

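The cytosolic ribosomal protein genes of the mouse were described in lymphoid progenitors of the bone marrow that carried or lacked PLCγ1 and PLCγ2, the phospholipases that cleave PIP2 downstream of many receptors. The genes were chosen by symbol: Rpsa, Rplp0, Rplp1, Rplp2, and every symbol that begins with Rpl or Rps followed directly by a digit, without the Rps6k kinases and without rows named "-ps". This gave 88 of 24421 genes. They comprised 77 core ribosomal proteins (31 of the small and 46 of the large subunit), 10 paralogs, and Rps19bp1, which the symbol rule picked up although its product binds RPS19 and is not a subunit of the ribosome. RNA was measured by poly(A) RNA-seq in common lymphoid progenitors (CLPs, sorted as Lin-IL-7R+) and in B cell progenitors (B220+IgM-IL-7R+). The 24 libraries came from 12 mice, 3 of each of 4 genotypes, and each mouse gave 1 library of both populations. The genotypes were Plcg1+/+Plcg2+/+ (WT), Plcg1-/-Plcg2+/+ (G1KO), Plcg1+/+Plcg2-/- (G2KO) and Plcg1-/-Plcg2-/- (DKO). Plcg2 was deleted in the germ line, and floxed Plcg1 was deleted by an interferon-inducible MxCre transgene after poly(I-C) injection of the young adult donors, with a Rosa-26-YFP reporter to follow deletion. MxCre, the reporter and poly(I-C) were shared by every group, WT included, and Mx-driven deletion is not limited to lymphoid cells. All mice sampled were lethally irradiated wild-type CD45.1+ recipients of such marrow. How many donors stood behind the 3 recipients of a genotype is not given in the sources used here, so p-values measure the spread between these recipients.

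The cytosolic ribosome consists of a small subunit, which binds the mRNA and decodes it, and a large subunit, which joins the amino acids. Its proteins are needed in equal amounts, except for the acidic stalk proteins P1 and P2, which are present in more than 1 copy. Most of their mRNAs begin with an oligopyrimidine tract (TOP), through which mTOR complex 1 controls their translation, with LARP1 as one of the factors that bind it. RPS6 is itself phosphorylated by the S6 kinases below mTOR complex 1. Many ribosomal protein genes have given rise to processed copies elsewhere in the genome, so that short reads of them often match more than 1 place.

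The start sites of some of these genes are shown first, since the pyrimidine run is the feature through which mTOR acts on such mRNAs. Of the 88 genes, 67 matched by symbol in the RefSeq promoter table (GRCm38.p6), and 49 of the core genes had a single annotated start. A run was counted where a C, followed by at least 4 bases that were each C or T, began between 5 bases before and 5 bases after the annotated first base on the gene's strand. Such a run was found in 22 of the 49 (44.9%), against 18.3% of the 22862 genes of the table with a single start. The share was 45.0% (9 of 20) in the small and 44.8% (13 of 29) in the large subunit. The windows below hold 10 bases before the annotated first base and 20 from it onward, 5′ to 3′ on the gene's strand, with the run in capitals. The absence of a run says only that these letters were not at the annotated start. Rps6, Rpl28, Rpl27a, Rpl18 and Rpl39 held one, and Rps16, Rpl24 and Rps7 did not. These genes are shown because each of them differed between the populations in the results further on. Other genes that differed are not shown, Rpl27, which had no run, among them.
Rps6 (chr4:86857348-86857377, minus strand): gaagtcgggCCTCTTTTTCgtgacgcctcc
Rpl28 (chr7:4792955-4792984, plus strand): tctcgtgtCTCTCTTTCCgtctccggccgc
Rpl27a (chr7:109519185-109519214, plus strand): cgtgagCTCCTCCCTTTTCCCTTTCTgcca
Rpl18 (chr7:45718061-45718090, plus strand): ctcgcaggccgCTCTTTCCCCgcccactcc
Rpl39 (chrX:37085203-37085232, minus strand): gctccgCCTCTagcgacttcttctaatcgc
Rps16 (chr7:28350679-28350708, plus strand): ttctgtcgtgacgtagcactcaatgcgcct
Rpl24 (chr16:55966265-55966294, plus strand): gctgttgctaggaaacagactgggcgctcg
Rps7 (chr12:28635934-28635963, minus strand): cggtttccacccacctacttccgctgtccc

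CLP libraries held 4232345 to 33219995 reads assigned to genes and B cell progenitor libraries 1479582 to 25057223. Of the CLP reads 17.9% to 45.2% fell on no gene, and of the B cell progenitor reads 59.9% to 87.3%, without overlap. Reads listed as ambiguous were 1.06% to 1.44% of the CLP reads and 0.11% to 0.42% of the B cell progenitor reads, also without overlap. A difference between the populations cannot be told apart from these differences between their libraries. The B lineage markers did not separate the sorts: all 9 B lineage markers, Pax5 and Ebf1 among them, were read in every library of both populations with overlapping ranges, and 0 of 9 was called between them in any genotype by edgeR or DESeq2. The 7 CLP markers had median log2 fold changes of -0.71 in WT B cell progenitors against CLPs (5 of 7 lower) and -0.50 in G1KO (6 of 7 lower). Their medians were -0.78 in G2KO and 0.03 in DKO, and 0 was called by edgeR or DESeq2. Other lineages moved with the population in part. The 8 T and NK cell markers had median log2 fold changes of -1.49 in WT B cell progenitors against CLPs (8 of 8 lower, 4 at an unadjusted p of at most 0.05), -0.16 in G1KO, -0.67 in G2KO and -0.04 in DKO, with 0 called. The 5 plasmacytoid dendritic cell markers had -0.91 (5 of 5 lower), -0.60, -1.25 (5 of 5 lower) and 0.02. Of these, 0 was called by edgeR without a block, and 2 were called lower in G2KO by DESeq2. With the mouse as a block edgeR called 1 lower in WT and 1 lower in G2KO. Their part in the population results was not tested. The 8 granulocyte genes (Mpo, Elane and others) summed to between 1306 and 8243 CPM (reads scaled to a library's reads on genes), with 6733 to 8243 CPM in the 6 libraries of replicate 1 of G1KO, G2KO and DKO. The 6 globin genes were listed at 0 throughout. Plcg2 lay at 72.1 to 138 normalized CPM in the 12 libraries that lack it and at 183 to 282 in the other 12. Plcg1 overlapped between the libraries labelled as deleted (56.1 to 185) and the others (77.4 to 113), and since a gene count does not resolve the floxed exons this checks nothing about those labels.

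Among the core genes that were read, the levels per kilobase ran from 4.02 to 2100. Apart from Rpl30, Rpl34 and Rps27, which had few reads, the lowest was Rps15a at 105. Normalized CPM, which are CPM after TMM scaling of library size, were divided by the length of a GENCODE transcript. The middle 50% of the core genes averaged between 383 and 936 normalized CPM per kilobase over the 24 libraries, with a median of 666. The highest were the stalk protein gene Rplp1 at 2100, the small subunit genes Rps14 at 1949 and Rps12 at 1747, Rpl8 at 1616 and Rps9 at 1603 normalized CPM per kilobase. The lowest core genes that were read at all were Rpl30 at 4.02, Rpl34 at 7.05 and Rps27 at 10.3 normalized CPM per kilobase. Rpl26, a large subunit gene whose product also binds the p53 mRNA, and Rps27rt, a retrotransposed copy of Rps27, had 0 reads in all 24 libraries. For a library a count of 0 allows up to 3 reads, between 0.0903 and 2.03 CPM at these depths, counting error only. Rps15a and Rps20 were assigned transcripts of 5179 and 3706 bases, which lowers their values per kilobase.

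The levels were set beside how much of each transcript is unique. In the median core gene 54.5% of the 50-base windows of the transcript also occurred in a transcript of another gene, and 46 of the 77 core genes shared at least 50% of theirs. Rps27 shared 98.6%, Rpl30 76.4%, Rpl26 71.3% and Rpl34 50.6%. Genes with as much shared sequence were also read at high levels, for example Rps12 with 83.6% shared and Rpl10 with 92.1% shared at 768 normalized CPM per kilobase. How reads with more than 1 match were counted is not given in the sources used here, so levels between genes are uncertain. A gene keeps its own windows in every library. Whether reads on shared windows were assigned alike in both populations was not tested.

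**Figure D1:**
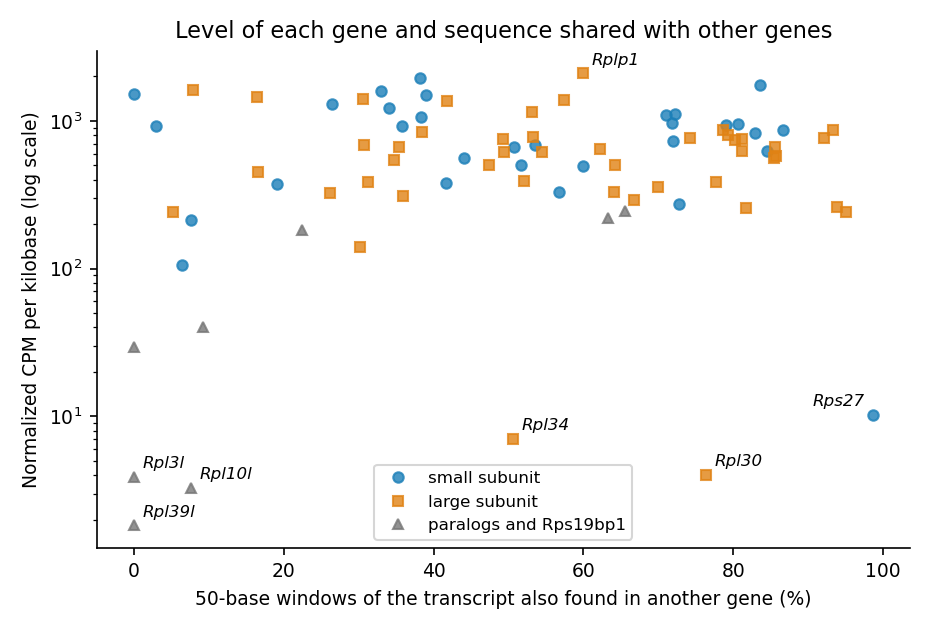
Each point is 1 gene with reads and an annotated transcript: the percent of the 50-base windows of its transcript that occur in another gene (x axis) against its mean normalized CPM per kilobase over 24 libraries (y axis, log scale), by class. Most core genes lie between 100 and 2100 at any degree of sharing, while Rpl30, Rpl34 and Rps27 lie at 4.02 to 10.3.

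The paralogs are copies with tissue-restricted or regulatory roles. Rpl39l, which is best known from the testis, averaged 1.83 normalized CPM per kilobase, Rpl10l, which replaces X-linked Rpl10 in male germ cells, 3.28, and Rpl3l, a paralog of striated muscle, 3.90. Read counts for these ranged from 1 to 89, from 1 to 218 and from 7 to 279 per library. By contrast Rpl22l1, the paralog of the lymphoid regulator Rpl22, averaged 246 normalized CPM per kilobase against 240.2 for Rpl22. This rests on transcripts of 552 and 2051 bases. Undivided by length, the medians were 103 against 461 normalized CPM in CLPs and 155 against 508 in B cell progenitors. Per kilobase, Rpl36al averaged 222 against 560 for its X-linked parent Rpl36a. Rps27l, a p53 target, averaged 183 normalized CPM per kilobase where its parent Rps27 was nearly unread.

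Summed over the 88 genes, ribosomal protein reads were 4.13% to 6.45% of a CLP library's reads on genes, and 3.86% to 5.70% of a B cell progenitor library's. In CLPs the share was 5.55% ± 0.281 (SD, n = 3) in WT, 5.07% ± 0.957 in G1KO, 5.50% ± 0.840 in G2KO and 4.92% ± 0.469 in DKO. The WT range (5.23% to 5.74%) overlapped with that of DKO (4.42% to 5.36%). In B cell progenitors it was 4.43% ± 0.308 in WT, 4.65% ± 0.618 in G1KO, 4.27% ± 0.454 in G2KO and 4.85% ± 0.766 in DKO, and the ranges of all 4 genotypes overlapped. Within a mouse the share was lower in B cell progenitors in 10 of 12 mice. The exceptions were replicate 1 of DKO (5.36% in CLPs, 5.70% in B cell progenitors) and replicate 2 of G1KO (4.13% and 4.66%). The large subunit genes took between 1.16 and 1.30 times the reads of the small subunit genes in every library.

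**Figure D2:**
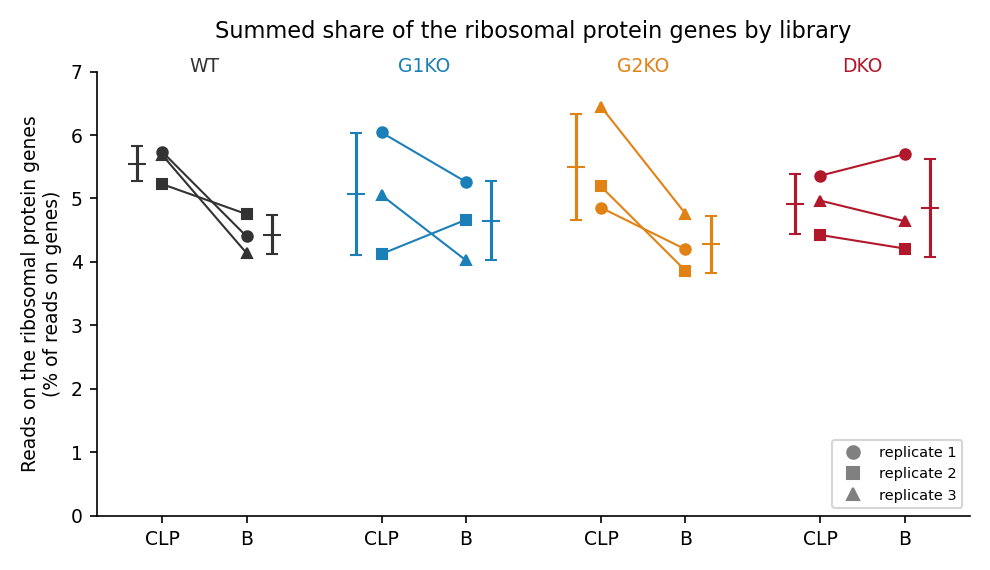
Reads on the 88 genes as a percent of reads on genes (y axis, from 0) for CLPs and B cell progenitors of each genotype. Lines join the libraries of 1 mouse, and bars beside them give the mean and SD of 3 mice. WT falls from 5.55% to 4.43%, whereas DKO lies at 4.92% and 4.85%.

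The core genes moved together from library to library. Over the 24 libraries, with the mean of each of the 8 groups taken away, 76 core genes had a mean pairwise correlation of 0.663 in log2 CPM, and 96.8% of the pairs were positive. All 17212 genes tested had a mean of 0.0236. The points share library, depth and scaling, so this is a description of these libraries. The exceptions were those with few reads or with a different course: Rps27 followed the mean of the other core genes with r = -0.54 and Rpl34 with 0.16. Because of this, a count of ribosomal protein genes on one side of a comparison is not a count of separate observations.

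The genotypes were compared within each population to ask whether loss of PLCγ1, PLCγ2 or both changed the ribosomal protein mRNAs. In CLPs none of the 86 genes tested was called in any comparison with WT, where a call needed edgeR's quasi-likelihood test to give an adjusted p no higher than 0.05 and a log2 fold change of 0.5 or more in either direction. All genes gave 0.00658%, 0% and 0.0921% called in G1KO, G2KO and DKO. At an unadjusted p of at most 0.05 there were 2 ribosomal protein genes in G1KO, 4 in G2KO and 1 in DKO, against 2.85%, 3.92% and 7.52% of all genes. DESeq2 also called 0 in each. The 3 comparisons share the WT libraries.

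In DKO CLPs the fold changes were small and nearly all on one side. Of 86 genes, 84 lay below WT, with a median log2 fold change of -0.18 (all genes -0.03), and the 31 small subunit genes (-0.19) and the 45 large subunit genes tested (-0.17) were alike. All 3 DKO libraries lay below all 3 WT libraries in 30 of the 86, against 7.75% of all genes tested, and above in 0, against 5.85%. The smallest p belonged to Rpl3l, which has few reads, with a log2 fold change of -1.10 (SE 0.46, edgeR adjusted p 0.623), followed by Rpl22l1 with -0.38 (SE 0.20, edgeR adjusted p 0.708) and Rps15, a small subunit protein, with -0.23 (SE 0.12, edgeR adjusted p 0.711). Rpsa, known also as the laminin receptor, had -0.23 (SE 0.13, edgeR adjusted p 0.721). The 95% intervals bound the change: for 75 of 76 core genes they lay within 1 log2 unit of 0, and for 36 within 0.5. Granulocyte genes summed to between 3142 and 7699 CPM in DKO CLPs and between 2076 and 3471 in WT, and without the 6 libraries highest in them the median was -0.21.

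In the single knockouts the CLP medians were -0.13 in G1KO and -0.06 in G2KO, and those of all genes -0.01 and 0.01. Of the 86 genes, 81 lay below WT in G1KO and 56 in G2KO, against 7887 and 7415 of all 15209 genes. The lean to one side was therefore not particular to DKO. All 3 G1KO libraries lay below WT in 7 genes (3.29% of all genes) and all 3 G2KO libraries in 13 (4.58% of all genes). The genes with the smallest p in G2KO were Rpl29, a heparin-binding large subunit protein, at -0.33 (SE 0.12, edgeR adjusted p 0.939), and Rplp0, the base of the stalk, at -0.31 (SE 0.12). In normalized CPM over the 24-library scaling, Rplp0 was 2195 to 2469 in WT, 1839 to 2136 in G1KO, 1803.8 to 1939 in G2KO and 2007 to 2237 in DKO. The G1KO and G2KO libraries of Rplp0 lay below all WT libraries and the DKO libraries overlapped with them. In G1KO the smallest p belonged to the rarely read Rpl10l (log2 fold change 1.82, SE 0.63, edgeR adjusted p 1.00) and Rpl39l (1.21, SE 0.54). Against the single knockouts, DKO CLPs had medians of -0.04 relative to G1KO and -0.11 relative to G2KO, with 0 genes called, while 0.0263% and 0.0526% of all genes were. With one library left out these medians ran from -0.13 to 0.083, above 0 without replicate 1 of G1KO, and from -0.17 to -0.0038, the latter without replicate 3 of G2KO. At an unadjusted p of at most 0.05 there were 2 in each (Rpl39l in both, with Rpl10l or Rpl22l1, all lower), against 4.29% and 7.54% of all genes.

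In B cell progenitors 0 of 85 genes tested was called in any comparison with WT, while 0.06%, 0.0467% and 0.893% of all genes were called in G1KO, G2KO and DKO. At an unadjusted p of at most 0.05 the counts were 1, 0 and 0, against 9.93%, 2.84% and 12.3% of all genes, and DESeq2 called 0. In DKO 71 of 85 genes lay above WT, with a median log2 fold change of 0.07 (all genes -0.02). This side was not stable: the median was 0.0029 without replicate 1 of DKO, 0.15 without replicate 2 of WT and -0.03 without the 6 libraries highest in granulocyte genes. All 3 DKO libraries lay above WT in 4 genes, Rps19, Rpl10a and Rpl15 among them, against 8.93% of all genes, and below in 0, against 10.8%. Rps19, the gene most often mutated in Diamond-Blackfan anaemia, was 330 to 379 normalized CPM in WT and 423 to 428 in DKO B cell progenitors, a log2 fold change of 0.27 (SE 0.14, edgeR adjusted p 0.466). The intervals held 65 of 75 core genes within 0.5 log2 units of 0 and 73 within 1. G2KO had a median of -0.11 with 79 of 85 genes below WT (-0.22 without its replicate 3, -0.05 without replicate 2 of WT). G1KO had a median of -0.02, which was 0.038 without its replicate 3 and -0.22 without the 6 libraries highest in granulocyte genes. Relative to G2KO the DKO median was 0.17, and 3 genes reached an unadjusted p of at most 0.05, against 11% of all genes: Rpl18 (0.33, SE 0.13), Rpl13a (0.29, SE 0.12) and Rpl11 (0.34, SE 0.15), with edgeR adjusted p from 0.4135 to 0.4303. Relative to G1KO it was 0.10, with 0 genes at an unadjusted p of at most 0.05 against 16.6% of all genes, and 0 genes were called in either comparison, where 0.213% (G1KO) and 0.153% (G2KO) of all genes were.

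**Figure D3:**
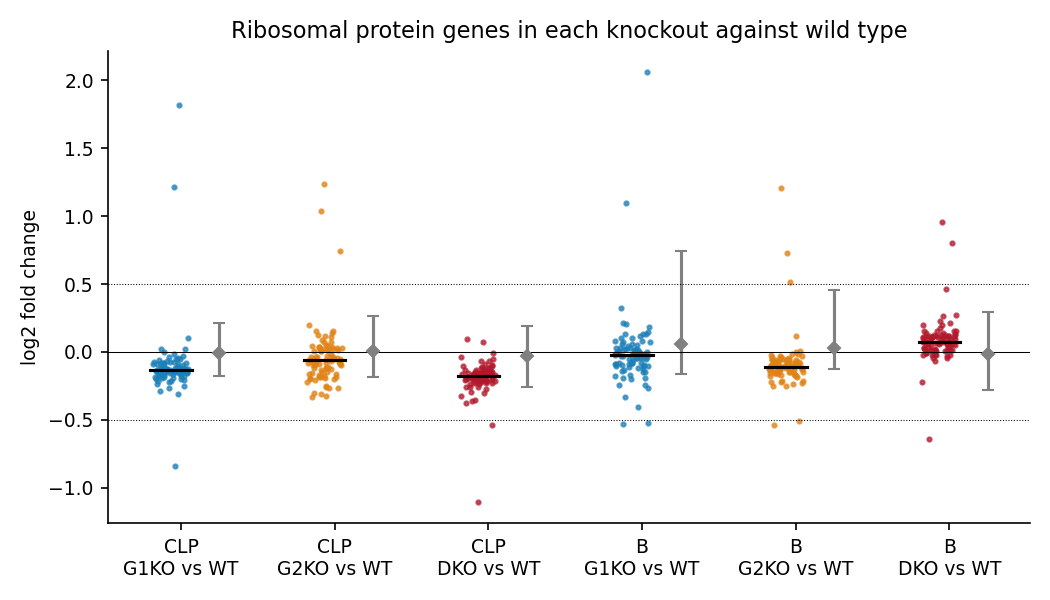
Log2 fold change against WT (y axis) of each ribosomal protein gene tested, 86 in CLPs and 85 in B cell progenitors, for the 3 knockout genotypes. Black lines give the medians, gray diamonds with bars the median and quartiles of all genes tested, and dotted lines mark a log2 fold change of 0.5 in either direction. The DKO genes lie below 0 in CLPs (median -0.18) and mostly above 0 in B cell progenitors (median 0.07, but 0.0029 without replicate 1 of DKO and -0.03 without the 6 libraries highest in granulocyte genes).

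The difference between the DKO effects was tested directly. It was positive for 85 of 86 genes, with a median of 0.24 log2 units (B cell progenitors minus CLPs) where all genes had -0.01, but no gene was called, and 0% of all genes were. At an unadjusted p of at most 0.05 the count was 0 in edgeR against 1.37% of all genes, and DESeq2 called 0. Rpl10a came nearest, at 0.39 (SE 0.19, 95% interval -0.00 to 0.79, edgeR adjusted p 1.00). Without replicate 1 of DKO B cell progenitors the median was 0.16, and without replicate 2 of WT B cell progenitors it was 0.33.

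Some ribosomal proteins also have roles outside the ribosome. Rpl5 and Rpl11, which bind MDM2 and stabilise p53 when ribosome assembly fails, were 526 to 566 and 581 to 608 normalized CPM in WT CLPs and 454 to 500 and 494 to 535 in DKO CLPs, with every DKO library below WT. In B cell progenitors Rpl5 was 563 to 645 in WT and 552 to 667 in DKO, and Rpl11 was 475 to 581 and 503 to 619, both with overlap. Rps6, the S6 kinase substrate, was 623 to 740 in WT CLPs and 562 to 644 in DKO CLPs, and 415 to 496 and 425 to 566 in WT and DKO B cell progenitors. Of the genes mutated in Diamond-Blackfan anaemia, 14 of 15 were tested (Rpl26 had no reads), and 0 was called in any genotype comparison.

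The populations were then compared within each genotype. In WT, 16 of 86 ribosomal protein genes were lower and 2 higher in B cell progenitors than in CLPs, where 0.354% of all genes were lower and 3.14% higher. In G1KO 12 were lower and 2 higher (all genes 0.738% and 3.04%), in G2KO 18 and 1 (0.459% and 2.75%), and in DKO 7 and 3 (0.29% and 2.95%). The medians over the tested ribosomal protein genes were -0.30, -0.22, -0.36 and -0.07 in WT, G1KO, G2KO and DKO, and those of all genes were -0.01, 0.13, 0.08 and -0.03. The DKO median was -0.16 without replicate 1 of its B cell progenitors and -0.01 without replicate 2. In all, 20 genes were lower in at least 1 genotype and 7 in all 4. Irrespective of genotype, all 12 B cell progenitor libraries lay below all 12 CLP libraries in 14 genes (0.354% of all genes) and above them in 2 (2.56% of all genes), and 43 of 86 were lower in at least 11 of 12 mice (11% of all genes). The share of reads on no gene moved with the population in every mouse, and its part in these differences was not tested.

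How many genes were called depended on single libraries. In WT, where 18 were called, leaving out replicate 1 or replicate 3 of the CLPs gave 9 each, and leaving out replicate 1, 2 or 3 of the B cell progenitors gave 6, 11 and 10. In G1KO, leaving out replicate 1 of the B cell progenitors, which is among those high in granulocyte genes, raised the count from 14 to 32. In DKO, where 10 were called, leaving out replicate 1 or replicate 3 of the CLPs gave 6. The share of all genes called with a library left out is not shown here. These counts alone therefore do not show a change particular to the ribosomal protein genes. With the mouse as a block the counts were 18, 15, 21 and 12 in WT, G1KO, G2KO and DKO. Of all genes 3.6%, 2.98%, 3.32% and 3.42% were called with that block.

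The genes lower in all 4 genotypes were Rps16 and Rps7 of the small subunit and Rpl10a, Rpl24, Rpl27, Rpl28 and Rpl29 of the large subunit. Rps16, whose protein tail reaches the tRNA in the decoding site, lies on chromosome 7 (28350652 to 28353155, GRCm38, plus strand). It was 634, 706 and 660 normalized CPM in the WT CLPs of replicates 1 to 3 and 245, 273 and 255.9 in the B cell progenitors of the same mice. In DKO it was 609, 587 and 608 in CLPs against 271, 255.7 and 238. Over all genotypes the CLP libraries of Rps16 ran from 510 to 706 and the B cell progenitor libraries from 200 to 273, and the groups did not overlap. Its log2 fold changes were -1.37 in WT (SE 0.12, edgeR adjusted p 7.07e-08), -1.41 in G1KO, -1.43 in G2KO and -1.24 in DKO, where p was 2.62e-07.

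Rpl10a, a protein of the L1 stalk that releases the used tRNA, was 456, 430 and 485 normalized CPM in WT CLPs and 194, 209 and 206 in WT B cell progenitors. In DKO B cell progenitors it was 272, 213 and 224, below the 369 to 434 of DKO CLPs. Its log2 fold change was -1.17 in WT (SE 0.14, edgeR adjusted p 5.39e-06) and -0.78 in DKO (SE 0.14, edgeR adjusted p 0.000875). Rpl27, a Diamond-Blackfan anaemia gene, fell from 275 to 309 in WT CLPs to 134 to 148 in WT B cell progenitors, a log2 fold change of -1.08 (SE 0.12, edgeR adjusted p 4.05e-06). Rpl29 was 302 to 341 and 142 to 158 in the same groups, and its log2 fold changes ran from -1.20 in G1KO to -0.91 in G2KO. None of Rps16, Rpl10a, Rpl27 and Rpl29 had a B cell progenitor library as high as its lowest CLP library.

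Rps7, another Diamond-Blackfan anaemia gene, was 568 to 694 normalized CPM in WT CLPs and 342 to 392 in WT B cell progenitors, with log2 fold changes from -0.81 in G1KO to -0.52 in DKO. Rpl28 was 696 to 849 and 432 to 521 in those groups, with -0.74 in WT (SE 0.14, edgeR adjusted p 0.00219). Rpl24, which helps join the subunits, was 224 to 240 and 137 to 154, with -0.69 in WT (SE 0.16, edgeR adjusted p 0.0118) and -0.57 in DKO (SE 0.16, edgeR adjusted p 0.0466). Rpl24 in DKO and Rps7 in DKO (edgeR adjusted p 0.0316) were the weakest of the calls made in all 4 genotypes.

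**Figure D4:**
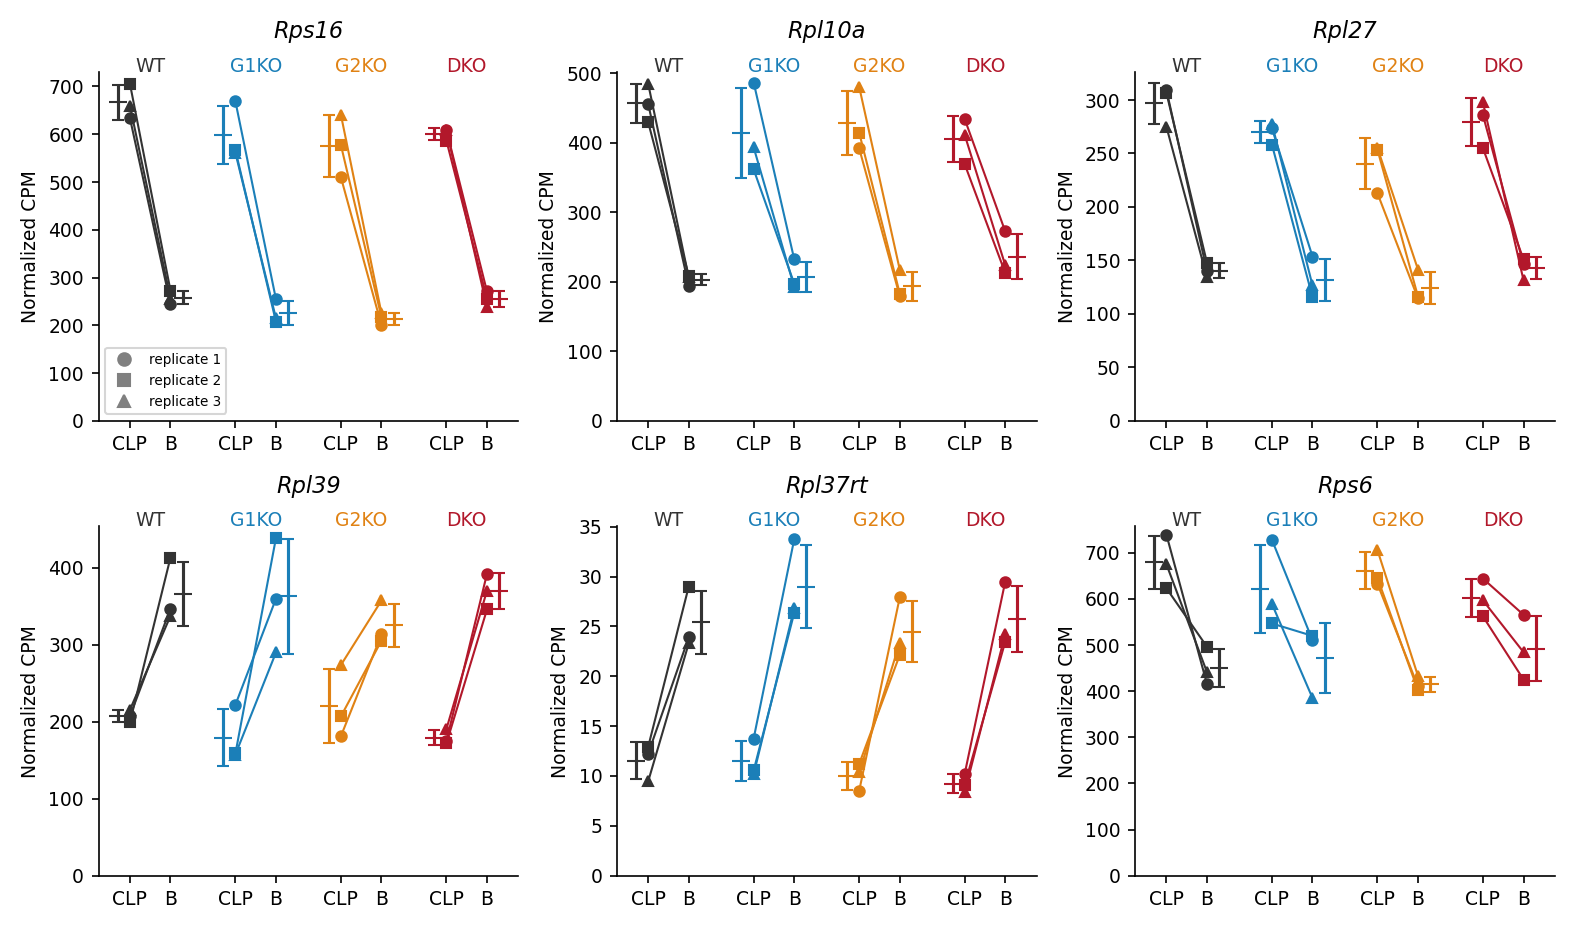
Normalized CPM (y axes, from 0) of 6 genes in CLPs and B cell progenitors of each genotype. Lines join the libraries of 1 mouse, and bars beside them give the mean and SD of 3 mice. Rps16, Rpl10a and Rpl27 fall in all 12 mice, Rpl39 and Rpl37rt rise in all 12, and Rps6 falls in all 12 but was called only in WT and G2KO.

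By edgeR, Rpl17, Rpl18, Rpl27a and Rps23, and Rpl30 at few reads, were called lower in WT, G1KO and G2KO but not in DKO. DESeq2 called Rpl30 in DKO as well (log2 fold change -1.97, DESeq2 adjusted p 0.0196). Rps23, whose loop monitors decoding accuracy, had log2 fold changes of -0.60 in WT, -0.56 in G1KO and -0.75 in G2KO, and -0.36 in DKO (SE 0.14, edgeR adjusted p 0.221). Rpl18 had -0.67, -0.62 and -0.75, and -0.43 in DKO, where its edgeR adjusted p was 0.0366 but the fold change missed the threshold. Rpl27a had -0.70, -0.66 and -0.81, and -0.41 in DKO. Rpl30, which is nearly unread, went from 2.39 to 6.61 normalized CPM in the 12 CLP libraries to 0.265 to 2.62 in the B cell progenitors, and its values rest on 1 to 174 reads a library. That a gene was called in WT and missed in DKO does not show a difference between them, and the direct test above called none.

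Rps6 and Rpl36al were called lower by edgeR in WT and G2KO. DESeq2 called Rpl36al also in G1KO (-0.64, DESeq2 adjusted p 0.037), as did edgeR with the mouse as a block (-0.63, edgeR adjusted p 0.0108). Rps6 had log2 fold changes of -0.59 in WT (SE 0.14, edgeR adjusted p 0.0159), -0.40 in G1KO, -0.67 in G2KO and -0.29 in DKO, and was lower in B cell progenitors in 12 of 12 mice, with ranges of 547 to 740 and 385 to 566 normalized CPM that overlapped. The 6 genes that edgeR called lower in 1 genotype were Rps19 and Rpl34 in WT and Rps9, Rpl13a, Rpl38 and Rpl41 in G2KO. DESeq2 called Rpl34 also in G1KO (-1.49, DESeq2 adjusted p 0.0137) and DKO (-1.65, DESeq2 adjusted p 0.00679), and Rpl41 also in WT (-0.57, DESeq2 adjusted p 0.0453). Rpl34, at few reads, was 3.92 to 6.73 normalized CPM in CLPs and 0.295 to 2.41 in B cell progenitors, without overlap. Rps19 fell from 513 to 518 normalized CPM in WT CLPs to 330 to 379 in WT B cell progenitors (log2 fold change -0.55, SE 0.13, edgeR adjusted p 0.0176).

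Rpl39, Rpl37rt and Rpl22l1 went the other way. Rpl39, an X-linked gene (37082520 to 37085402, minus strand) whose product lines the exit tunnel, was 199 to 215 normalized CPM in WT CLPs and 338 to 413 in WT B cell progenitors. Over all genotypes it ran from 157 to 274 in CLPs and from 290.2 to 439 in B cell progenitors. Its log2 fold changes were 0.82 in WT (SE 0.17, edgeR adjusted p 0.00467), 1.02 in G1KO, 1.04 in DKO (SE 0.17, edgeR adjusted p 0.000348) and 0.56 in G2KO (SE 0.17, edgeR adjusted p 0.0711). DESeq2 called Rpl39 in G2KO as well (0.54, DESeq2 adjusted p 0.0455). With the mouse as a block edgeR called it there too (0.58, edgeR adjusted p 0.0457). Rpl37rt, a retrotransposed copy of Rpl37 on chromosome 5, was 8.38 to 13.8 normalized CPM in CLPs and 22.1 to 33.8 in B cell progenitors, and was higher in all 4 genotypes, from 1.15 in WT (SE 0.18, edgeR adjusted p 0.000357) to 1.47 in DKO. Rpl22l1 was higher in all 12 mice (CLPs 81.2 to 165, B cell progenitors 127 to 203) and was called by edgeR in DKO, with a log2 fold change of 0.81 (SE 0.20, edgeR adjusted p 0.019). DESeq2 called Rpl22l1 in G1KO as well (0.62, DESeq2 adjusted p 0.0445). Its parent Rpl22 had values between -0.26 and 0.29 and was not called. In DKO, edgeR with the mouse as a block also called Rpl3l, at few reads (1.29, edgeR adjusted p 0.029), and Rps15a (0.52, edgeR adjusted p 0.0425) higher. Neither was called there by DESeq2 or by edgeR without the block.

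The rows named "-ps", which the symbol rule leaves out and which carry names of pseudogene copies, were summed and tested as well. Together these 7 rows summed to 13.2 to 29.8 CPM on genes in CLPs and 36.5 to 60.2 in B cell progenitors, without overlap. Of the 5 that were tested, 1 was higher in WT, G1KO and G2KO and 2 in DKO, and 0 was lower. In the other direction, Rpl31-ps12 had values from -2.60 to -1.23, none of them called. Rpl14-ps1 was the row called in each, with log2 fold changes from 1.11 in G1KO to 1.71 in DKO. The share of reads on no gene was higher in the same libraries, and its part in this was not tested.

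**Figure D5:**
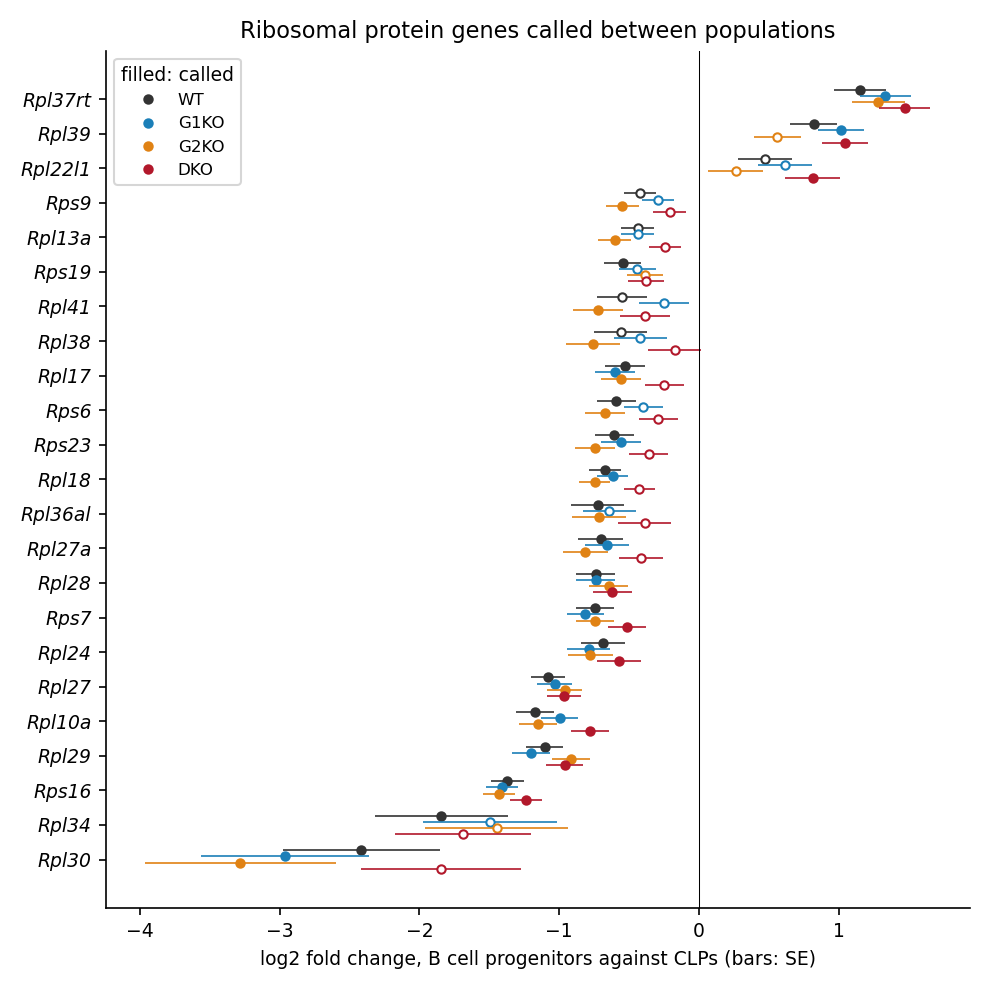
Log2 fold change of B cell progenitors against CLPs (x axis) for the 23 ribosomal protein genes called in at least 1 genotype, with bars for the SE and filled points where the gene was called. Rps16, Rpl29, Rpl10a and Rpl27 lie between -0.78 and -1.43 in every genotype, and Rpl37rt lies between 1.15 and 1.47.

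Among the stalk proteins, Rplp1 had log2 fold changes between -0.04 and 0.24, Rplp2 between -0.35 and -0.04 and Rplp0 between -0.40 and -0.25, none of them called, although Rplp0 was lower in B cell progenitors in 12 of 12 mice. Rpsa was between -0.18 and -0.00, and Rpl5 between -0.02 and 0.32. The X-linked genes differed among themselves: Rpl39 was higher, Rpl10, Rps4x and Rpl36a were not called, and Rpl10 lay lower in all 12 B cell progenitor libraries than in any CLP library (624.7 to 781 normalized CPM in CLPs against 428 to 619) with log2 fold changes from -0.47 to -0.32. Of the other paralogs, Rpl7l1 lay between -0.11 and 0.03 with an SE of 0.09, and Rps27l between 0.16 and 0.47, uncalled.

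The population differences of the genes were correlated across genotypes, although the medians differed (-0.30 in WT, -0.07 in DKO). Over 76 core genes the log2 fold changes of any 2 genotypes, which rest on different mice, correlated with Pearson's r between 0.88 and 0.98. Rpl30, at few reads, lay far from most genes, at -2.41 in WT, -2.96 in G1KO and -3.28 in G2KO. Neither r without it nor a rank correlation was computed. The points share the sorting gates and the library differences named above. Features of the transcript followed the difference only loosely: Spearman's rho with the percent of shared windows lay between -0.30 and -0.23, with GC content between -0.26 and -0.14, and with transcript length between 0.02 and 0.17. The 7 genes lower in all genotypes shared a median of 64.1% of their windows with other genes, and the 58 core genes lower in none 53.9%. The genes were also split by the pyrimidine run at the start site. In WT the 22 tested genes with a run had a median of -0.39 and the 26 without it -0.29, with 5 and 4 of them lower. In G1KO, G2KO and DKO, 4, 8 and 1 genes with a run were lower, and 4, 5 and 4 without it. In DKO CLPs against WT the medians were -0.16 and -0.18. Of the genes lower in all 4 genotypes, Rps16, Rps7, Rpl24 and Rpl27 had no run and Rpl28 had one. Rpl10a and Rpl29 were not among the genes with a single start.

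The other subunits and the machinery around the ribosome were read in the same comparisons. Fau, which encodes RPS30 fused to a ubiquitin-like protein, and Gnb2l1, which encodes RACK1, are subunit genes that the symbol rule does not reach. Of 3 such genes tested, 2 were lower in B cell progenitors in WT and G1KO and 1 in G2KO and DKO. Fau was lower in B cell progenitors in all 4 genotypes (log2 fold changes from -0.92 in G2KO to -0.69 in DKO), whereas Gnb2l1 was not called in any of them. The 77 mitochondrial ribosomal protein genes had medians of 0.03, 0.01, -0.01 and 0.11 in WT, G1KO, G2KO and DKO, and in WT 1 was higher and 1 lower. The 15 other TOP mRNAs, such as Eef1a1, had medians between -0.06 and 0.00, with 0 called in WT, G1KO and G2KO and 1, Hnrnpa1, higher in DKO (0.70, SE 0.18, edgeR adjusted p 0.0358). Of 32 ribosome biogenesis genes, Bysl and Tsr1, which act on the precursor of the small subunit, were higher in every genotype (Bysl 1.82 in WT, SE 0.22, edgeR adjusted p 9.44e-06, and Tsr1 0.81, SE 0.13), and Rrp9 was lower in DKO (-0.63, SE 0.16, edgeR adjusted p 0.0244), a call that was lost with the mouse as a block. Among 13 translation control genes 0 was called in any genotype.

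Between genotypes 0 of these genes was called in either population in the comparisons with WT. In DKO B cell progenitors the median was 0.07 for the ribosomal protein genes, -0.01 for the mitochondrial ribosomal proteins, -0.14 for ribosome biogenesis and -0.54 for 12 proliferation genes, all 12 of which lay below WT, 9 of them at an unadjusted p of at most 0.05 and 0 called. In DKO CLPs the medians were -0.18, -0.09, -0.10 and -0.33. All 12 proliferation genes also lay below WT in G1KO and G2KO, in both populations. Their medians there were -0.46 and -0.19 in B cell progenitors and -0.33 and -0.37 in CLPs. The lower side was therefore not particular to DKO. In B cell progenitors 5 proliferation genes met the same p limit in G1KO and 0 in G2KO. Of all genes 9.93% and 2.84% met it there, and 12.3% in DKO. In bulk samples such as these, fewer cells of a type and less RNA per cell cannot be told apart.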

How the data were processed

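Poly(A) RNA of 24 libraries was analysed. The authors deposited, for each library, raw read counts per gene by symbol. The submitters' processing notes name STAR 2.5.0a and mm10, and the counting program is not given in the sources used here. The 2 rows that name no gene (unassigned and ambiguous reads) were left out of library sizes and tests (17.9% to 87.3% and 0.11% to 1.44% of a library). Both shares differed between the populations without overlap.

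The counts went into edgeR 4.0.16 under R 4.3.3 (TMM, filterByExpr, glmQLFit, glmQLFTest, Benjamini-Hochberg over all genes tested): genotypes in 1 fit per population, populations in 1 fit of all 24 libraries, without covariates. This kept 15209, 15001 and 17212 genes. A call needed an adjusted p no higher than 0.05 and a log2 fold change of 0.5 or more in either direction. Standard errors come from the F statistic and intervals are 95%. The calls were checked on simulated counts.

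The ribosomal protein genes, the other lists and the tests were chosen with earlier results of these data known. Named were the called genes up to 10 or the 5 largest rises and falls, the 3 smallest p where fewer than 3 were called, the highest and lowest levels per length, paralogs and parents, X-linked genes, and Rps6, Rpsa, Rplp0, Rplp1, Rplp2, Rps19, Rpl5 and Rpl11. Others named here, such as Rpl15, were chosen after their values were seen. Some genes are not reported here.

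Alternatives were DESeq2 1.42.0, RLE size factors, TMM without the ribosomal protein genes, all genes without a count filter, the adjusted p without the fold limit, the replicate number as a block, each library left out, and 6 libraries left out. Annotation came from GENCODE vM21 and RefSeq (GRCm38.p6), with a transcript for 86 of 88 genes. By their titles, the CLP library and the B cell progenitor library of a number are from 1 mouse, and their deviations from group means correlated with a mean r of 0.114 over 12 mice. Depth, between 1479582 and 33219995 reads on genes, limits the rarely read genes most.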

Additional observations from a re-analysis of the deposited data

How the results depend on the processing

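Between genotypes, 0 ribosomal protein genes were called under any alternative, each library left out included. Between populations the counts kept within 1.5 times under DESeq2, RLE size factors, TMM without the ribosomal protein genes, no filter, adjusted p alone and without the 6 libraries high in granulocyte genes (left out after seeing the data). With one library left out they ranged from 6 to 12 in WT, 11 to 32 in G1KO, 13 to 19 in G2KO and 6 to 8 in DKO, and the cause was not tested. The shares of all genes called with a library left out are not shown here. The medians ranged from -0.50 to -0.23 in G1KO and from -0.56 to -0.37 in G2KO. For B cell progenitors the median of G1KO against WT (-0.02) was -0.22 without the 6 libraries and -0.17 to 0.038 with one library left out, and that of DKO against G1KO was 0.048 to 0.30. With one library left out, the CLP medians against WT ranged from -0.25 to -0.04 in G1KO, -0.16 to -0.0006 in G2KO and -0.22 to -0.13 in DKO. Without the 6 libraries the medians of G2KO CLPs (0.01) and DKO B cell progenitors (-0.03) changed side. As a percent of all reads, including those on no gene, the summed share was 3.97, 3.64, 3.54 and 3.81 in CLPs and 1.55, 1.13, 1.20 and 1.84 in B cell progenitors of WT, G1KO, G2KO and DKO. With the replicate number as a block, which pairs the populations by mouse, the median between populations in WT was -0.30. The counts were 18, 15, 21 and 12, against 3.6%, 2.98%, 3.32% and 3.42% of all genes. With this block 0 genes were called between genotypes, whose numbers name no shared animal (mean r 0.133 within a population). With one library left out, calls of single genes were lost in 97 of the 582 values compared, and 0 reversed. The 582 also held the genes with the smallest p in comparisons without calls. Such genes had no call to lose, so 97 of 582 understates the share of calls that were lost.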
